A study of Mus musculus with 2 samples.

Results

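In the newborn mouse thymus, 615 autosomal long noncoding genes reached at least 1 TPM (abundance scaled to transcript length and library total) in both libraries. They were chosen from 4813 autosomal genes that GENCODE M21 types as lincRNA (between other genes), antisense (opposite a gene), processed_transcript (spliced, without an open reading frame), sense_overlapping or bidirectional_promoter_lncRNA (started beside a coding gene on the other strand). The members are 12.8% of these candidates and 1.42% of the 43346 genes measured. Malat1, Neat1, H19, Meg3 and Kcnq1ot1 were left out by name. Level chose the members, so their levels are a description and carry no test.

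Total RNA was sequenced from both thymus lobes of pups of strain B6NCrl at postnatal day 0, with 1 library per pup. Replicate 1 is pup2 and replicate 2 is pup3 of the same pregnant female. No treatment or transgene is labelled, and sex was not collected. The samples form 1 group of 2 littermates, so no p-value was computed, and the difference between libraries holds biological and technical parts together.

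Expected counts summed to 39045711 over the genes of replicate 1 and to 41576378 over those of replicate 2. The markers matched the labelled tissue: the thymocyte genes Cd3e (378.45 and 450.21 TPM) and Rag1 (262.6 and 279.08 TPM) and the cortical epithelial gene Prss16 (523.87 and 555.94 TPM) were abundant. Of the liver genes, Alb stood at 0.12 and 0.4 TPM and Apoa2 at 3.34 and 4.2, and of the brain genes, Syn1 at 0.01 and 0.03 and Gfap at 0.76 and 0.69. All 5 thymocyte and all 3 epithelial markers stood higher in replicate 2, from Cd4 (83.76 and 84.42 TPM) to the epithelial Psmb11 (67.72 and 97.05) and Foxn1 (18.44 and 27.35). In whole tissue, fewer cells of a type and less RNA per cell cannot be told apart.

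Long noncoding RNAs are transcribed and often spliced like messenger RNAs but are not translated into a known protein. Some are known for what lies in their introns: small nucleolar RNAs (snoRNAs), which guide the modification of ribosomal RNA, and microRNAs, which silence messenger RNAs through a short seed that pairs with the target. Others start at a promoter shared with a coding gene, or act on chromatin, as Airn does in imprinting. In thymocytes, the miR-181 family tunes T-cell receptor sensitivity, and miR-142 and the miR-17 cluster are prominent in blood cells.

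The members that carried microRNA genes on their own strand are introduced first by those microRNAs. Across 26 such members lay 42 different microRNA genes, of which RefSeq (GRCm38.p6) gave 64 mature sequences with 55 different seeds. The following are examples of those that share a seed within a host cluster or belong to the highest hosts. Others of both kinds are not shown. Capitals mark the seed, bases 2 to 8.

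mmu-miR-142a-5p: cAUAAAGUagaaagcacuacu

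mmu-miR-142a-3p: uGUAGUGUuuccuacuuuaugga

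mmu-miR-181a-5p: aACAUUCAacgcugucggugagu

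mmu-miR-181b-5p: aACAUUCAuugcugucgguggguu

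mmu-miR-15a-5p: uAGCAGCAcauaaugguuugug

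mmu-miR-16-5p: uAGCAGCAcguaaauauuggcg

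mmu-miR-17-5p: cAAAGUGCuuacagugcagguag

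mmu-miR-20a-5p: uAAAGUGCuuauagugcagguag

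mmu-miR-19a-3p: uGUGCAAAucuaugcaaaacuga

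mmu-miR-19b-3p: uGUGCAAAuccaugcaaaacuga

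The first pair comes from Mir142hg (chr11:87755577-87757270, + strand), whose level was 152.40 TPM in replicate 1 and 150.49 in replicate 2. The pair with the seed ACAUUCA lies in Gm4258 (chr1:137898595-138000384, + strand), at 145.21 and 86.31 TPM, so the first library stood higher. The miR-15a and miR-16 pair, with AGCAGCA, lies in Dleu2 (chr14:61602839-61682373, - strand), at 49.56 and 36.14 TPM. The last 2 pairs, with AAAGUGC and GUGCAAA, lie in Mir17hg (chr14:115042879-115046727, + strand), the miR-17 cluster host, at 8.79 and 8.68 TPM. Another shared seed, GAGGUAG, belongs to let-7a, let-7c, let-7d and let-7f, in hosts near the threshold or a few TPM above it. Those of let-7a, let-7d and let-7f lie in 6720427I07Rik (4.62 and 4.89 TPM), and that of let-7c in Mir99ahg (2.60 and 1.28 TPM). A further let-7 gene, Mirlet7a-2, lies in 3110039I08Rik (2.53 and 1.89 TPM). The only sequence found for it was let-7a-2-3p, with the seed UGUACAG. RNA above 200 nucleotides was kept, per the labels, so these are levels of the host RNA and no mature microRNA was measured.

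Of 76 candidates with a microRNA gene inside, 26 (34.2%) were members, with a median of 4.94 TPM. Mir22hg stood at 7.82 and 5.91 TPM. Mir155hg, whose microRNA acts in activated lymphocytes, was low at 2.10 and 1.62 TPM. Mir124a-1hg and Mir9-3hg, hosts known from neurons, were no members: the former was listed at 0 in both libraries and the latter at 0 and 0.04 TPM. A430106G13Rik, a single-exon gene within the body of Gm4258 that shares Mir181b-1 with it, stood at 14.87 and 7.37 TPM. Both miR-181 hosts were therefore higher in replicate 1, while the nearest coding gene, Ptprc (CD45, the leukocyte phosphatase), over 200 kb away, was at 362.41 and 334.56 TPM. For Gm4258 the transcript with most of the TPM, 75.4% and 80.0%, is annotated as a retained intron.

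Genes holding snoRNAs had a higher median level than the other members. Of 43 candidates with an annotated snoRNA gene inside, 23 (53.5%) were members, with a median of 34.9 TPM against 3.50 TPM for the other 592 members. Gas5 (chr1:161034422-161038539, + strand), which holds 10 snoRNA genes and is known to accumulate in arrested lymphocytes, led with 555.64 and 594.46 TPM. It was followed by Cct6a (253.11 and 275.19 TPM), 2410006H16Rik (186.46 and 193.94), Snhg6 (109.15 and 106.93) and Zfas1 (89.66 and 91.24). The log2 ratios between pups of these 5 lay between 0.01 and 0.17. Of the 20 members at 100 TPM or more 4 were hosts, and 5 hosts lay below 5 TPM. Rian, which carries snoRNAs and microRNAs of the imprinted Dlk1 region, was low at 3.0 and 2.33 TPM. Snhg14, whose body holds 208 snoRNA genes of the imprinted Prader-Willi region, stood at 4.92 and 4.31 TPM.

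RefSeq promoters, from 250 bases before to 50 bases after the gene start, were available for 17 of these 23 hosts. Host genes of this kind are known to start in a pyrimidine tract, and some carry a TATA box. The following 4 promoters are shown because they are the 3 highest hosts with TATAAA and the highest with a tract, among those whose RefSeq and M21 starts lie within 50 bases. Capitals mark TATAAA, or a tract that opens with C, goes on in C or T for at least 7 bases and begins within 5 bases of the start.

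Snhg3, chr4:132353637-132353936, - strand: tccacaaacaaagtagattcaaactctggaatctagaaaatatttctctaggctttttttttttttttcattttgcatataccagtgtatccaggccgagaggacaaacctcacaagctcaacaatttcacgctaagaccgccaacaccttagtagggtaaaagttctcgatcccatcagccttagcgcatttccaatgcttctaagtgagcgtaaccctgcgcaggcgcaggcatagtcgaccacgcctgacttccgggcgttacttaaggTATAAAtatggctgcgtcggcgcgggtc

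Snhg5, chr9:88522848-88523147, - strand: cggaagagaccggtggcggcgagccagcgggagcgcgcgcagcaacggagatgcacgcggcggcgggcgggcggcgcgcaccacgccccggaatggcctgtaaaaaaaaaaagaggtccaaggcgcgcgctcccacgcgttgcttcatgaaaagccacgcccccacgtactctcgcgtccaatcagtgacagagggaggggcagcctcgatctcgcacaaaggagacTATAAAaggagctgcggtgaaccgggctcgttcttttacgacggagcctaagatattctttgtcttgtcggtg

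1110038B12Rik, chr17:34952422-34952721, - strand: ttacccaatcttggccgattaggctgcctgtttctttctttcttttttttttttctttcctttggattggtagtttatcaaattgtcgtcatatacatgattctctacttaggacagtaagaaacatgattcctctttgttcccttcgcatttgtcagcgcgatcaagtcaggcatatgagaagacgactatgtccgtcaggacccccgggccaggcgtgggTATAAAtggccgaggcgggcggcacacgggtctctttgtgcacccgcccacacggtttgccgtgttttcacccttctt

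2410006H16Rik, chr11:62602627-62602926, + strand: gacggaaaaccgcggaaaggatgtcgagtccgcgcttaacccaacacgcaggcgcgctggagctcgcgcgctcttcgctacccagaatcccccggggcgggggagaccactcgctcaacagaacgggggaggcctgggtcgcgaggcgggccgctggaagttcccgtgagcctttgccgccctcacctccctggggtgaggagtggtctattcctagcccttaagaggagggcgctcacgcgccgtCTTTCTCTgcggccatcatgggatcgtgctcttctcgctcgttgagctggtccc

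In Snhg5 (74.13 and 82.33 TPM) the TATAAA begins 23 bases before the RefSeq start, in 1110038B12Rik (70.02 and 77.53 TPM) 28 bases before it, and in Snhg3 (78.82 and 80.35 TPM) at base 23 of the transcript. In 2410006H16Rik the tract of 8 pyrimidines begins 4 bases before the start. TATAAA, searched on both strands over the 300 bases, was in 6 of the 17 hosts (35.3%), in 17 of the 266 other members with a promoter (6.39%) and in 13.6% of all 32851 RefSeq promoters. These are matches at any position. In Rab26os the match began 31 bases before the start, and in 9330159M07Rik at base 37 of the transcript. The first of 2 matches in Snhg9 began 120 bases before the start on the other strand. The tract, searched on the gene's strand, was in 5 of the 17 hosts (29.4%), in 7.14% of the other members and in 6.48% of all promoters. A match is a string of letters and not a known site, and 17 promoters are few.

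**Figure D1:**
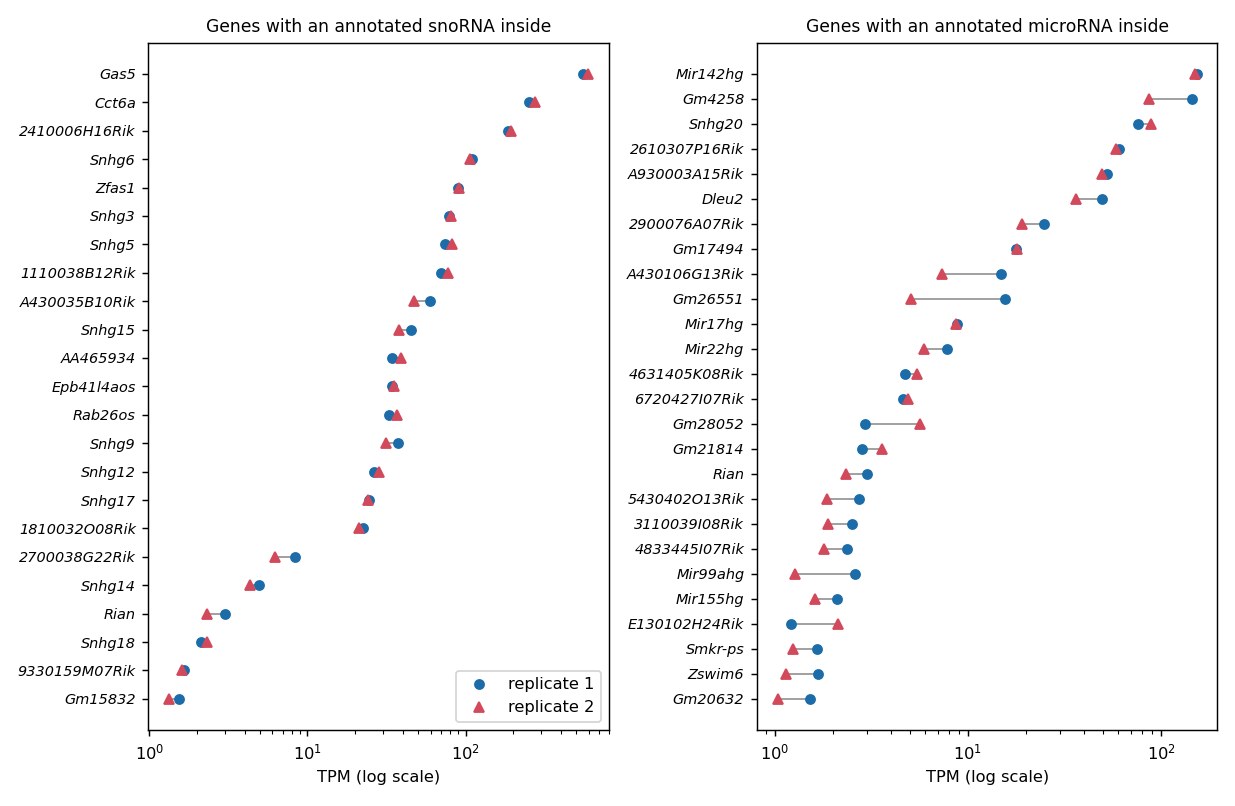
Level in TPM (log axis) of each member with an annotated snoRNA (left) or microRNA (right) gene inside, with a circle for replicate 1 and a triangle for replicate 2, joined by a line. The snoRNA hosts reach from Gm15832 near 1 TPM to Gas5. Among the microRNA hosts Gm26551, A430106G13Rik and Mir99ahg lie apart with replicate 1 higher, and Gm28052 and E130102H24Rik with replicate 2 higher.

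By type, antisense genes were the most numerous members (239), followed by lincRNA (204), processed_transcript (142), bidirectional_promoter_lncRNA (29) and sense_overlapping (1). As a share of candidates the order was different: 32.2% of bidirectional promoter genes and 25.4% of processed transcripts were members, against 11.9% of antisense and 9.58% of lincRNA genes. Median levels were close, at 4.38 TPM for lincRNA, 4.34 for processed_transcript, 2.99 for antisense and 2.5 for bidirectional promoter genes. The single sense_overlapping member, AC093020.1, stood at 1.69 and 1.91 TPM.

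Most members were low. The quartiles of the mean TPM were 1.85, 3.65 and 8.85. There were 173 members from 1 to 2 TPM and 204 from 2 to 5, while 142 reached 10 and 20 reached 100. At the threshold stood 4930480K23Rik (1.12 and 1.00 TPM), 6330562C20Rik (1.26 and 1.00) and Gm26582 (1.17 and 1.01) just inside, and Gm29395 (1.89 and 0.99), Gm29361 (1.65 and 0.99) and 9230116N13Rik (1.40 and 0.99) just outside. A further 187 candidates passed in only 1 library, 150 of them in replicate 1. The lower bound of the authors' deposited TPM interval was at least 1 in both libraries for 491 members. At the other end, 1775 candidates were listed at 0 in both libraries.

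**Figure D2:**
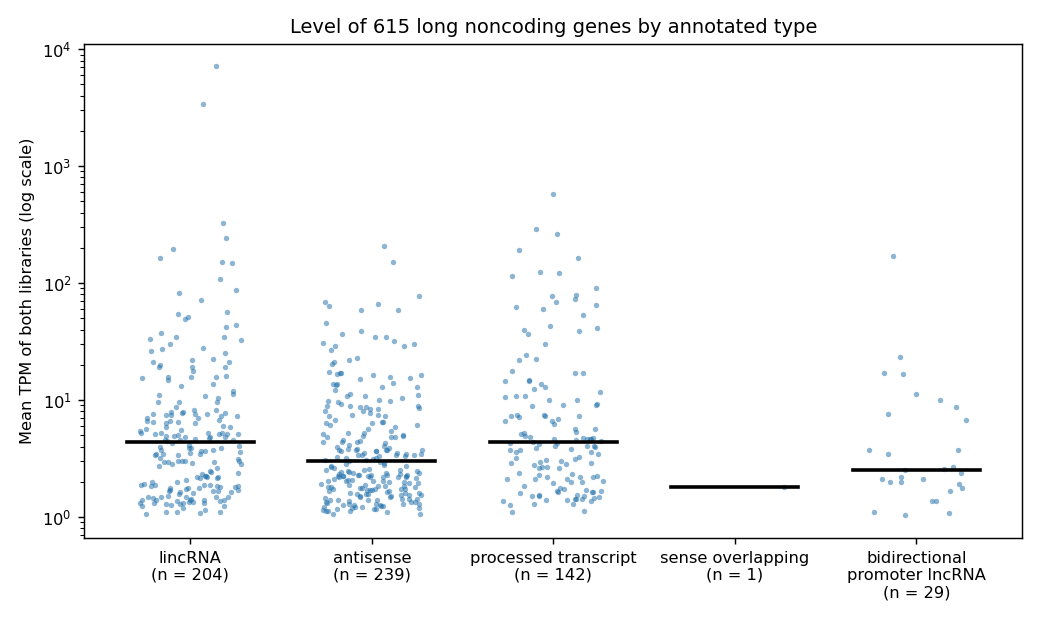
Mean TPM of both libraries (log axis) of each of the 615 members, in a column per GENCODE type, with a black line at the median of the type. The medians lie between 1.80 and 4.38 TPM, and 2 lincRNA genes, Gm42418 and Gm26917, stand above all others.

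Members together held 2.16% of all gene TPM in replicate 1 and 1.72% in replicate 2 (1.94% ± 0.313, SD, n = 2). Most of that was held by a pair of neighbouring lincRNA genes, Gm42418 (chr17:39846958-39848788, + strand) and Gm26917 (chr17:39843013-39846341, + strand), annotated in a region known to hold sequence of the 45S ribosomal RNA precursor. Gm42418 stood at 8483.47 and 5759.65 TPM and Gm26917 at 3944.02 and 2842.75 TPM. They held 57.5% and 50.1% of the members' TPM and were both higher in replicate 1. The other members held 0.917% and 0.857%, closer between the pups. Whether the reads of this pair came from ribosomal RNA was not tested.

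Below this pair and Gas5, the highest lincRNA genes were Gm10076 (323.49 and 332.99 TPM), Lockd (236.38 and 249.93) and 1810058I24Rik (188.94 and 199.76). Lockd (chr6:134929092-134956798, + strand) lies downstream of Cdkn1b, which encodes the cell cycle inhibitor p27 and stood at 48.55 and 44.04 TPM. The highest processed transcripts after Gas5 were Gm12940 (331.36 and 247.64 TPM), Cct6a, 2410006H16Rik and AI662270 (156.80 and 170.60). Gm12940 overlaps Sfpq, a splicing factor gene, on the same strand, with 8.06% of its exon bases in coding genes on its own strand and 63.8% opposite one.

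The highest antisense members were Dgkeos (193.56 and 221.69 TPM), Gm37401 (137.46 and 166.11), Gm37065 (88.41 and 68.09), Gt(ROSA)26Sor (69.11 and 68.15) and Sp3os (73.84 and 59.00). Gt(ROSA)26Sor is the broadly active locus used as a site for transgenes. Gm37065 lies opposite Slamf6, a lymphocyte receptor gene at 202.26 and 186.19 TPM. Gm37401 has 93.4% of its exon bases opposite exons of coding genes and lies 630 bases from the start of Gpx1, which encodes a glutathione peroxidase and stood at 717.02 and 766.78 TPM. Use of strand is not given in the sources used here, so reads of such a gene and of its antisense partner cannot be told apart.

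The highest bidirectional promoter gene was 1700097N02Rik (154.16 and 185.05 TPM). Its annotated start is 34 bases from that of Glo1, a glyoxalase gene at 136.47 and 141.29 TPM, on the same strand. Of its exon bases, 10.7% lie in coding exons on its own strand and 24.5% opposite one. The next were 4632427E13Rik beside Rab30 (26.45 and 20.12 TPM), 2810013P06Rik beside Ankrd11 (19.35 and 14.73), Gm17251 beside Rab11b (19.53 and 14.06) and 2610306M01Rik beside Aak1 (11.15 and 11.17). After the first, the step down was large.

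Not all abundant members are noncoding by another annotation. RefSeq types 377 members as lncRNA, 18 as protein_coding and 7 as a kind of pseudogene, and 212 were without a RefSeq type. Cct6a, which encodes a chaperonin subunit, is among the 18, as are 1810058I24Rik, Tmem134 (128.07 and 119.24 TPM), 2310009A05Rik (114.68 and 131.48), Ifi30 (63.86 and 72.88), a lysosomal thiol reductase gene, and Ptpmt1 (44.36 and 35), a mitochondrial phosphatase gene. Gm10076 is a pseudogene in RefSeq, and how reads shared with near-identical copies were divided was not tested. The deposited TPM intervals of Gm10076 were 304.0 to 331 and 314 to 340. The lincRNA member Gm42743 (59.15 and 39.88 TPM) has no RefSeq type. Its highest transcript, with 98.98% and 99.4% of its TPM, is Hist2h2bb-201, which M21 types as protein_coding.

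Among conserved long noncoding RNAs, 5 of 7 measured were members. Tug1, linked to chromatin regulation, stood at 56.60 and 59.97 TPM, 1700020I14Rik at 44.77 and 43.66, 2900097C17Rik at 27.74 in both libraries, Crnde at 2.22 and 2.13, and Pvt1, beside Myc, at 1.72 and 1.82. Miat (0.05 and 0.01 TPM) and Lncpint (0.25 and 0.18) were not members. Of 6 measured immune and p53 genes, 3 were members: AW112010, an interferon-responsive RNA of immune cells (38.76 and 36.77 TPM), Hotairm1, a myeloid RNA of the HoxA cluster (41.25 and 32.05), and Gm14005, known as Morrbid, which controls myeloid cell survival (4.41 and 6.13). Bach2os (0.37 and 0.39 TPM), Bach2it1 (0.53 and 0.16), which is typed sense_intronic, and Trp53cor1 (0.01 and 0.09), the p53 target lincRNA-p21, were not.

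Of 5 measured imprinted genes, 4 were members: Airn (9.14 and 7.85 TPM), Snhg14, Nespas (3.50 and 2.66) and Rian, all 4 a little higher in replicate 1 by scaled counts. Mirg, a neighbour of Rian, stood below the threshold at 0.37 and 0.54 TPM. Of 14 measured genes in the list of known snoRNA hosts, 13 were members. The other one, Snhg11, is typed protein_coding in M21. Those not yet given were Snhg20 (75.59 and 88.73 TPM), Snhg15 (44.80 and 37.91), Snhg9 (37.14 and 31.43), Epb41l4aos (34.39 and 35.41), Snhg12 (26.16 and 28.44), Snhg17 (24.31 and 23.96) and Snhg18 (2.13 and 2.30). Snhg20, the one with the widest gap of these in TPM, has no annotated snoRNA inside in M21.

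In structure, 323 members had a transcript of 3 or more exons, 235 had 2 exons and 57 had 1 (9.27%, against 4.43% of candidates that were not members). The median union of exon bases was 1724 against 1070.5. Of 297 members with at least 2 transcripts in the deposited tables, the transcript with most of the TPM was the same in both libraries in 263 (88.6%).

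Members started close to coding genes. The start of a protein-coding gene lay within 1 kb of 249 members (40.5%) and of 741 of the 4198 other candidates (17.7%). Within 5 kb the counts were 338 (55.0%) against 1178 (28.1%), and within 10 kb 391 (63.6%) against 1481 (35.3%). The median distance was 3335 bases against 25363.5. Within 1 kb, 124 members were divergent (head to head without overlap), 112 overlapped the coding gene antisense to it and 13 overlapped it on the same strand. By type the median distance ran from 136 bases in bidirectional promoter genes through 1401.5 in processed transcripts and 1600 in antisense genes to 13855.5 in lincRNA genes. These are counts over genes, which are not replicates, so no test was made.

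**Figure D3:**
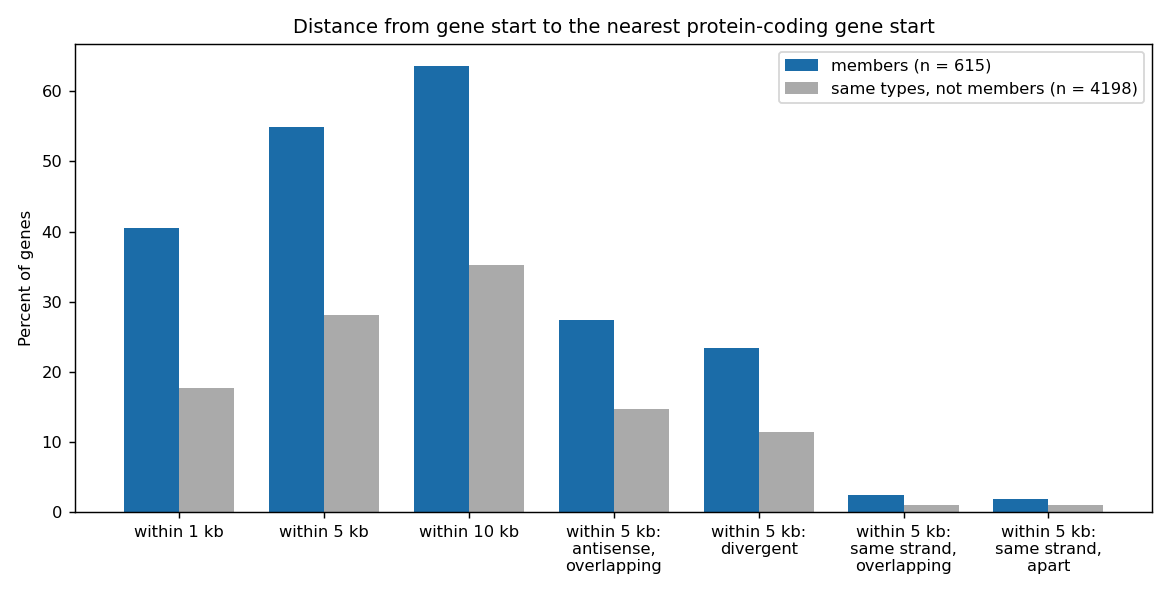
Percent of the 615 members and of the 4198 other candidates whose start lies within 1, 5 or 10 kb of a protein-coding gene start, and within 5 kb by orientation. The members' bar is taller in each of the 7 pairs, as at 1 kb with 40.5% against 17.7%.

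The nearest coding gene was itself expressed, at 1 TPM in both libraries, for 527 members (85.7%) and for 2586 other candidates (61.6%), near the 58.6% of all 20337 coding genes. For the 303 members (49.3%) whose exons overlap no coding exon on either strand, where reads cannot be shared that way, the share was 239 (78.9%) against 61.0% of such other candidates. Their median neighbour stood at 14.99 TPM against 3.25. Members and neighbours showed no common order of level: Spearman's rho across the 615 pairs was -0.00028, a description over genes of the same libraries.

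Most members stood below their neighbour, and 180 (29.3%) stood above it. Some of the latter lie beside silent genes: Gm42418 and Gm26917 beside Esp38 (0.00 in both libraries), AA465934 (34.29 and 38.83 TPM) beside Slfn14 (0.01 and 0.03), Snhg6 beside Tcf24 (0.09 and 0.16) and Gm13166 (64.05 and 45.32) beside Zfp600 (0.00 and 0.12). The 10 members highest relative to their neighbour also hold 1810058I24Rik and Gm14005, described above, and the lower Gm29434 (9.35 and 8.39 TPM), Gm14275 (5.12 and 4.18) and Dubr (3.95 and 5.10). Gas5 starts 427 bases from Zbtb37, a zinc finger gene at 4.05 and 3.25 TPM on the other strand. Gm5914 (162.04 and 135.91 TPM) starts 92 bases from Agrp (1.03 and 1.00), a feeding neuropeptide gene, but 72.5% of its exon bases lie opposite coding exons.

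Promoter composition differed with position. Of 283 members with a RefSeq promoter, 65.0% were CpG-rich (observed over expected CpG of at least 0.6), against 23.9% of 1420 other candidates and 49.5% of coding genes. The share was 84.6% of 136 members with a coding start within 1 kb and 41.8% of 91 with none within 10 kb. CCGGAAGT, searched on both strands, was in 9.19% of the members' promoters, 2.11% of the other candidates' and 3.89% of all RefSeq promoters, and CCAAT in 38.9%, 35.4% and 37.4%. The matches say nothing of which factor bound.

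Of 62 T-lineage coding genes, 10 were the nearest coding gene of 14 members. Those 14 came from 44 candidates nearest to such a gene, while 12.8% of all candidates were members. Members lay more often beside expressed coding genes in general, as given above. Beside Arpp21, an RNA-binding protein gene of immature thymocytes (369.31 and 338.07 TPM), 2900079G21Rik started 1661 bases away on the other strand, at 26.89 and 25.63 TPM. A430093F15Rik, divergent from Cd5 (101.08 and 93.44 TPM), an inhibitory coreceptor gene, stood at 13.53 and 12.16 TPM. Their log2 ratios between pups were -0.02 and -0.22.

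Around Tcf7, the T-cell transcription factor gene TCF-1 (891.47 and 1052.56 TPM), the members differed. A630014C17Rik, antisense to it, stood at 4.76 and 4.43 TPM, while Gm26551, whose body overlaps Tcf7 on the same strand without sharing exon bases, stood at 15.61 and 5.09. Gm12000, antisense to Ikzf1, the Ikaros gene (75.32 and 82.92 TPM), stood at 3.33 and 1.13, from only 52 and 19 counts. Gm16565, which overlaps Cd247, the CD3 zeta chain gene (231.85 and 233.42 TPM), stood at 8.20 and 4.33. These 3 were higher in replicate 1 while their coding neighbours were not.

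Gm4258 and A430106G13Rik, nearest to Ptprc and described above, had log2 ratios of -0.66 and -0.97. The remaining members beside T-lineage genes were low and closer between the pups. Gm11579, beside the costimulatory receptor gene Cd28 (84.69 and 78.26 TPM), stood at 9.73 and 9.35 TPM, 2310075C17Rik, antisense to Arpp21, at 5.98 and 5.68, and Gm19585, beside the chromatin organiser gene Satb1 (735.96 and 599.57), at 4.54 and 5.15. Gm20402 (4.61 and 4.14 TPM) has 98.1% of its exon bases opposite exons of coding genes, at Foxo1 (8.35 and 6.53). Gm15417, antisense to the CD4-lineage factor gene Zbtb7b (3.34 and 3.81 TPM), stood at 3.85 and 3.19, and Gm37469, antisense to Cd247, at 2.57 and 1.95.

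Members were shifted towards replicate 1 relative to all genes, while their excess of differences over 2-fold depended on the setting and the count. Ratios are of replicate 2 over replicate 1 on TMM-scaled counts with a prior count of 0.5, for genes with a mean of 50 or more expected counts, which 490 members reached. Of these, 20 (4.08%) were over 2-fold apart, 19 higher in replicate 1 and 1 higher in replicate 2. Among all 14155 genes so compared 1.35% were over 2-fold apart, 1.15% higher in replicate 1 and 0.198% higher in replicate 2. That excess was also present at a minimum mean count of 200 (4.42% of members against 0.362% of all genes). It was absent at a minimum mean count of 10 (4.24% against 4.67%) and with spike-in totals as library sizes (6.73% against 7.11%). The comparisons with all genes were not even, the main one included. Members had to reach 1 TPM in both libraries, which can limit wide ratios among low genes, and all genes had no such limit. Spike-in totals moved all ratios up and brought all genes (median 0.71) nearer to the log2 limit of 1 than members (0.51). Under TMM the members' median was the nearer one, on the side of replicate 1. The part of these points in the calls was not tested. The median log2 ratio was -0.18 in members and 0.02 in all genes, and 333 members (68.0%) were higher in replicate 1, against 46.1% of all genes. With spike-in totals the median turned to 0.51, with 0.71 in all genes, and the calls became 33, all higher in replicate 2, so the direction rests on the scaling. The gap of -0.19 between members and all genes was the same under TMM and under spike-in totals, since a change of library size moves all ratios alike.

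Of the 20, the widest apart was 4833407H14Rik (chr19:53460622-53462723, + strand), a lincRNA gene with no coding overlap, at 26.62 and 8.57 TPM from 1088 and 378 counts, a log2 ratio of -1.59. Gm26551 (chr11:51949882-52269514, - strand) followed with 1074 and 378 counts and -1.57. Next came Gm26580 (183.78 and 74.48 counts, -1.36), Gm21781 (369 and 156 counts, -1.30) and Gm15489, which starts 38 bases from the mitotic kinase gene Plk1 (98 and 47 counts, -1.12). Gm15787, 2010016I18Rik, Gm26860, Gm26699 and Gm26816 lay between -1.09 and -1.07.

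In the other direction Gm28592 (chr10:111506575-111507662, - strand) went from 257.63 to 543.66 counts, a log2 ratio of 1.01. It has 98.1% of its exon bases opposite exons of coding genes, next to Phlda1. The authors' deposited TPM intervals, 8.59 to 17.5 and 21.3 to 30.9, do not overlap. Each interval belongs to a single library and does not measure spread between pups. Gm26825 followed at 0.97, below the 2-fold limit, from 753.75 and 1541.04 counts with deposited posterior SDs of 148.21 and 102.61. In 39 members the posterior SD was over 10% of the count in a library. The ratios of Gm26781 (0.64), Gm13205 (0.61), Rptoros (0.56), 1700001G11Rik (0.54), Gm14005 (0.54), 1110019D14Rik (0.53), Gm29387 (0.52) and Gm17122 (0.50) were smaller.

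**Figure D4:**
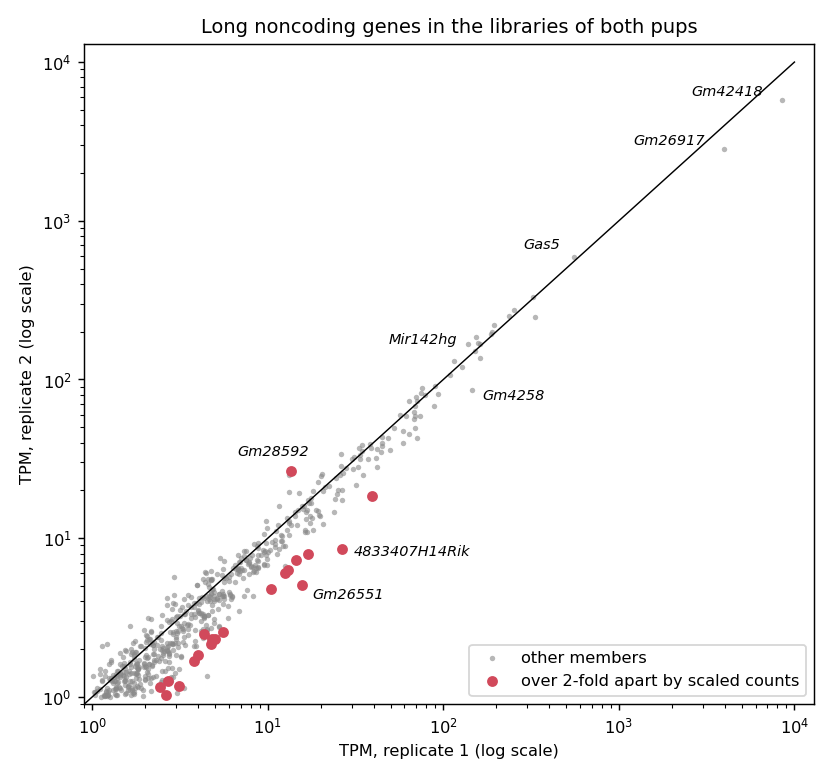
TPM of each of the 615 members in replicate 1 (horizontal) and replicate 2 (vertical), both log axes, with the line of equal values and the 20 members over 2-fold apart by scaled counts in red. All but Gm28592 of the red points lie below the line, as do Gm42418, Gm26917 and Gm4258.

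The size of the shift varied between classes, with medians of -0.12 in lincRNA, -0.19 in antisense, -0.20 in processed_transcript and -0.28 in bidirectional promoter genes. It was -0.11 in members outside coding genes, -0.20 in those over a coding gene on the other strand only and -0.25 in those over one on their own strand. In 3 classes by number of exon bases, the 163 shortest members (183 to 1541 bases) had a median of -0.04, with 56.4% higher in replicate 1, against -0.23 in the middle class and -0.19 in the longest. In 4 classes of mean count it lay between -0.22 and -0.13, against -0.03 to 0.03 in coding genes of the same classes. The 23 snoRNA hosts stood at 0.04 with a range of -0.41 to 0.24, and the 22 microRNA hosts compared at -0.24. Over 2-fold apart were 0 snoRNA hosts and 1 microRNA host (Gm26551), beside 1.35% of all genes. Classes this small cannot tell such shares apart. Differences between these classes were not tested.

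The nearest coding genes did not move alike. Over 194 members with a coding start within 1 kb and both genes compared, the members' median was -0.18 and the coding genes' 0.01. Across all 430 such pairs at any distance Spearman's rho of the ratios was 0.067, a description over genes that share both libraries. Other gene models moved further: 107 TEC models, which the annotation lists as awaiting proof by experiment, had a median of -1.02, and 11 sense_intronic genes, which lie in introns, one of -0.60. Retained-intron transcripts held 4.40% and 3.95% of all TPM, but 5.03% and 5.11% of the TPM of members without Gm42418 and Gm26917. The part of intronic sequence in the shift, and that of the epithelial markers, which moved the other way, was not tested.

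**Figure D5:**
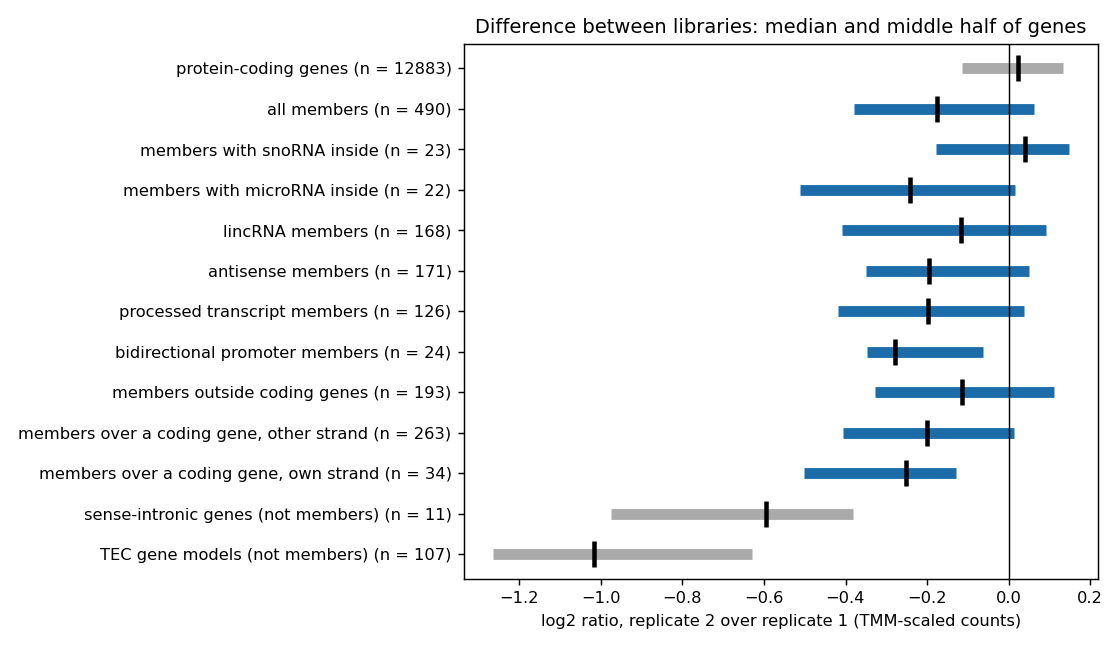
Median log2 ratio of replicate 2 over replicate 1 (black bar) and the span from lower to upper quartile (coloured band; blue for members, grey for other genes) per class, with the number of genes compared. Coding genes and snoRNA hosts lie around 0, the member types between -0.28 and -0.12, and TEC models at -1.02.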

How the data were processed

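Members and lists were chosen with earlier results of these data known. The authors deposited a gene and a transcript table per library, with expected counts, which are estimated counts without normalization, TPM, which is scaled to length and library total, FPKM, the percent of a gene's TPM per transcript, and a posterior SD and TPM interval. Build mm10 is given per the labels and annotation M4 per the deposited read-me texts. No aligner or quantifier is named, and whether strand was used is not given in the sources used here. Replicate numbers come from the labels.

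Types and coordinates (GRCm38) were joined from GENCODE M21 by gene identifier without version. This matched 42462 of 43346 gene rows. Neighbours are the coding genes with the nearest annotated start. Ratios used edgeR 4.0.16 TMM factors (R 4.3.3), with DESeq2 1.42.0 size factors as an alternative, a prior count of 0.5 and a mean expected count of at least 50. Levels relative to a neighbour used a pseudocount of 0.01 TPM. With 1 group no test was possible. Promoters were matched by symbol where the RefSeq and M21 starts lay within 1 kb. The ratio step was tested on simulated data.

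The text names the 5 highest members per type, the 10 largest ratios per direction, all measured list members, members nearest to a T-lineage gene, the 10 highest relative to their neighbour, the 5 highest with a coding start within 1 kb, and 3 genes on each side of the threshold. Other small RNA hosts, genes typed coding by RefSeq, Gm42743 and the 4 promoters were named after their values were seen. List genes without a matching symbol were not analysed here. Python 3.11.15, pandas 2.3.3, numpy 2.4.6 and matplotlib 3.10.9 were used.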

Additional observations from a re-analysis of the deposited data

Results flagged for a closer look

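Signal lay outside the genes described above: the 884 gene rows without a GENCODE M21 entry held 103942 expected counts in replicate 1 (0.266% of gene counts) and 93596.1 in replicate 2 (0.225%). Their type is not known here, so they were not among the candidates.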

How the results depend on the processing

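No paired analysis was possible because there is only 1 group. The number of members was 402 at 2 TPM in place of 615, 922 at 0.5 TPM and 520 with FPKM, and 652 to 765 with 1 library alone. Members over 2-fold apart numbered 33 with spike-in totals (6.73%, against 1007 of all genes, 7.11%) and 26 at a mean count of at least 10 (4.24%, against 840 of all genes, 4.67%). At a mean count of at least 200 they numbered 10 (4.42%, against 41 of all genes, 0.362%). Among the 236 compared members without exon overlap with a coding gene they numbered 8 (3.39%, against 1.35% of all genes). Under the other settings they numbered 14 to 22 (2.86% to 4.49%, against 1.19% to 1.53% of all genes). The median log2 ratio of members was 0.51 with spike-in totals, which rest on only 659 and 427 counts, and -0.12 without members whose exons overlap a coding gene. It lay between -0.20 and -0.16 under the others. Leaving out members that RefSeq types as coding or pseudogene, an alternative chosen after seeing the data, gave 20 calls and -0.18. The share of gene TPM, 1.94%, was 1.23% without Gm42418, 0.887% without Gm26917 too (chosen after seeing the data), 2.37% by expected counts, and 1.72% to 2.16% with 1 library alone. Members above their neighbour numbered 176 to 182 with 1 library alone and 124 by expected counts. Depth limits the low members: 125 were under a mean count of 50, and for 124 the deposited lower TPM bound was under 1 in a library.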
